A study of Mus musculus with 10 samples.

Results

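Translation initiation and elongation factors are the proteins that bring ribosomes to an mRNA, find its start codon and move the ribosome along it. In the count table of this series they are the genes whose symbol starts with Eif1 to Eif6 or with Eef, leaving out the Eif2ak kinases and any pseudogene marked -ps. The pattern matched 65 symbols, of which 4 were Eif2ak kinases and 0 carried -ps. The remaining 61 genes, 52 initiation factors (Eif) and 9 elongation factors (Eef), are described here out of 33006 genes in the table. The names decide membership, so enzymes that modify elongation factors and are listed under other symbols, such as Mettl13 (Eef1aknmt in RefSeq), are not among them. Conversely, Eif2c5 is an older Argonaute symbol (RefSeq synonym Ago5) and not a translation factor.

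RNA was sequenced from 4 libraries, 2 with auxin and 2 without, all harvested 12 h after release from G1. All came from E14 mouse embryonic stem cells that carry NPM1AID, a form of the nucleolar histone chaperone NPM1 with an auxin-inducible degron, so the cells without auxin carry the tagged protein too. The headers of the count table name a single clone, number 38. Both groups were cultured in leukemia inhibitory factor, PD0325901, which inhibits MEK1/2 (1 µM), and CHIR99021, which inhibits GSK3 (3 µM). Polycomb's repressive histone mark H3K27me3 was mapped in 1 ChIP-seq sample at 6 h without auxin and in 1 CUT&RUN control at 12 h. Chromatin samples with auxin, alone or with a PRC2 inhibitor, and the input and IgG samples were not used here.

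Initiation begins when the factor eIF2 delivers initiator tRNA to the small ribosomal subunit, with eIF1, eIF1A, eIF3 and eIF5. The cap-binding protein eIF4E, the scaffold eIF4G and the helicase eIF4A recruit that complex to the capped 5′ end of the mRNA, and eIF5B joins the large subunit. Elongation then cycles between eEF1A, which brings aminoacyl-tRNA, and eEF2, which moves the ribosome by a codon. Elongation factor mRNAs and several initiation factor mRNAs start with a terminal oligopyrimidine tract, the element through which growth signals control their translation together with that of ribosomal protein mRNAs. In stem cells these factors set how much protein a growing cell can make, and eIF2B, eIF4E and eEF2 are its main points of regulation.

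The libraries held 13353446 and 16046290 counted fragments with auxin and 14789851 and 15183126 without. The mRNA of the tagged protein's gene, Npm1, had 843 and 767 CPM with auxin, against 1058 and 951 CPM without (edgeR quasi-likelihood test, adjusted p = 0.00337). CPM is the count scaled to the library size after TMM correction. Auxin removes the protein through the degron, and the mRNA level therefore does not check the labels. The 8 embryonic stem cell markers summed to 6725 and 6600 CPM with auxin and to 6994 and 6919 CPM without, and 1 of them rose (Nanog) and 4 fell. Of the markers of other cells, those of primitive endoderm summed to 639 and 582 CPM with auxin, against 529 and 490.5 CPM without. In that list 2 of 5 tested genes rose, Dab2 and Sparc, and Sparc, whose call was lost without replicate 2 of the cells without auxin, gave most of the sum. Fibroblast markers summed to 11.8 and 11.3 CPM with auxin and to 8.64 and 8.27 CPM without, with 1 of 4 tested genes called (Pdgfra, higher, a call lost in DESeq2, without either library of the cells without auxin and without auxin replicate 1) and Twist2 and Lum at 0 or 1 fragment in each library. Markers of 2-cell-like cells summed to 37.6 and 56.7 CPM with auxin and to 40.3 and 54.3 CPM without, with 0 of 6 called by edgeR (1 lower at an unadjusted p under 0.05) and 0 by DESeq2. The part of these cells in the results was not tested. Mitochondrial transcripts took 4.96% and 3.46% of fragments with auxin and 4.06% and 3.52% without. The labels do not say that replicates were separate cultures, so p-values measure library-to-library spread only, and that spread may be technical. In bulk RNA, fewer cells with a transcript and less of it per cell cannot be told apart.

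Translation factor mRNAs were called lower with auxin far more often than higher, by small amounts. Of the 61 genes, 58 passed the expression filter and were tested. After auxin 30 of them fell, 3 rose and 25 were not called (edgeR quasi-likelihood test, adjusted p under 0.05), where 14.5% of all 13522 genes tested were called lower and 13.0% higher. One of the 3, Eif4e1b, passed the filter only through the auxin libraries and had to differ, which leaves 2 higher calls without it. The median log2 fold change of the 58 was −0.19, with 50 below 0, and that of all genes tested was 0.013. The changes called lower were small, between 1.13-fold and 1.38-fold. CPM did not overlap between the groups for 49 of the 58 (84.5%), Eif4e1b among them, against 64.8% of all genes tested. At a mean of 50 CPM or more the gap was smaller, with 42 of 48 factors apart (87.5%) against 75.0% of all genes.

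By class, which was not tested for a difference, the counts were as follows. Of 49 initiation factors tested, 25 fell, 3 rose and 21 were not called, with a median log2 fold change of −0.18. Of 9 elongation factors, 5 fell, 0 rose and 4 were not called, with a median of −0.19. No elongation factor was higher at an unadjusted p under 0.05 (0 genes), and DESeq2 also called 0. Of the 3 genes that rose, Eif4g3 and Eif5a2 each have a more abundant paralog that fell. Eif4e1b has one too, but it passed the filter only through the auxin libraries. Among the 48 factors at a mean of 50 CPM or more 30 fell, so an abundant paralog that fell is common. Whether rises go with such paralogs was not tested.

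Level matters for this count, since abundant genes were called lower more often in these libraries. Among all 4426 genes at a mean of 50 CPM or more, 31.8% were called lower and 10.6% higher, with a median log2 fold change of −0.09. Of the 48 factors in that range, 30 fell and 1 rose, with a median of −0.21 and 46 below 0. Below 50 CPM 10 factors were tested, of which 0 fell and 2 rose, Eif5a2 and Eif4e1b. Of these, Eif4e1b passed the filter only through the auxin libraries. Among all genes in that range 6.13% were called lower and 14.2% higher.

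**Figure D1:**
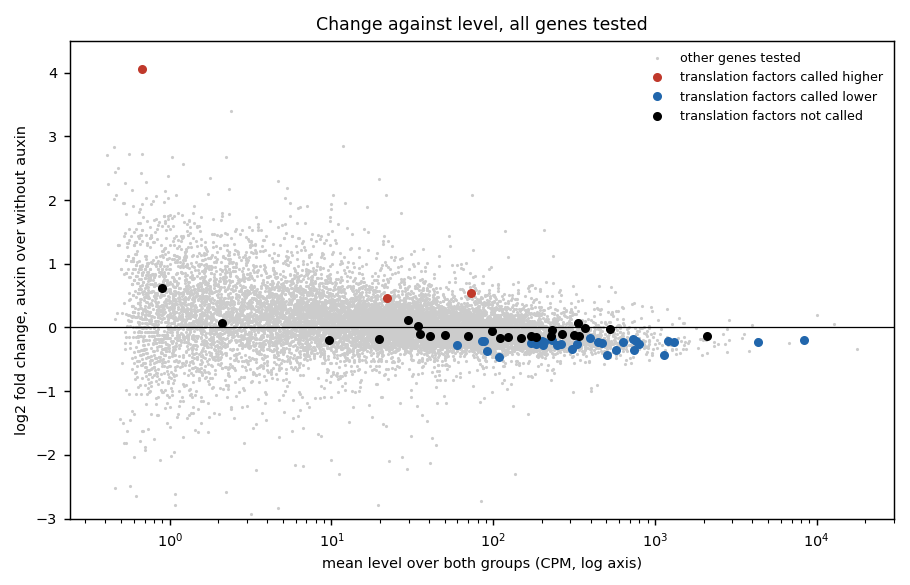
Change against level for each gene tested: the x axis is mean CPM on a log scale and the y axis the log2 fold change of auxin over without auxin. Initiation and elongation factors are drawn over all other genes, and 8 genes lie outside the y axis. Above 50 CPM 46 of 48 factors lie below 0, where the median of all genes is −0.09.

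The scaling of the libraries sets how many of these calls are made. When library totals alone were used, without TMM factors, 2735 of all genes (20.2%) were called higher and 988 (7.31%) lower, so that 73.5% of calls were higher, against 47.2% with TMM. The median of all genes was then 0.11 and those of initiation and elongation factors −0.084 and −0.10, a near-constant shift of all fold changes that leaves their order as it was. Initiation factors then had 11 genes called lower and 4 higher, and elongation factors 1 lower. One library also mattered: without replicate 1 of the cells without auxin, 15 initiation and 3 elongation factors were called lower and 3 initiation factors higher, against 1257 of all genes lower (8.98%) and 1225 higher (8.75%). DESeq2 called 28 factors lower and 2 higher, against 11.7% of all genes lower and 7.10% higher. In all 10 alternatives 12 of the 30 lower calls held, those of Eif1, Eif1ax, Eif3b, Eif3c, Eif3k, Eif3l, Eif4a3, Eif4b, Eif4e, Eif4ebp2, Eif5a and Eef1d. The higher calls of Eif4g3 and Eif5a2 held in all 10 alternatives. That of Eif4e1b held in each alternative that gave an adjusted p. It passed the filter only through the auxin libraries, so this adds no support. How many calls over all genes held in every alternative was not computed, so the counts of calls held have no background.

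As a share of all counted fragments, which is scaling by library totals alone, the factors took 2.95% and 3.00% with auxin and 3.23% and 3.21% without. Initiation factors made up 1.58% and 1.61% with auxin, against 1.74% and 1.72% without. Elongation factors made up 1.37% and 1.39% with auxin, against 1.49% and 1.49% without. Both shares were lower in each auxin library than in each library without. Most of the elongation share was Eef1a1 and Eef2. Eef1a1 alone made up 0.80% and 0.80% with auxin and 0.85% and 0.86% without. Eef2 made up 0.40% and 0.42% with auxin and 0.45% and 0.45% without. With library totals alone neither gene was called (edgeR adjusted p = 0.158 for Eef1a1 and 0.0758 for Eef2).

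**Figure D2:**
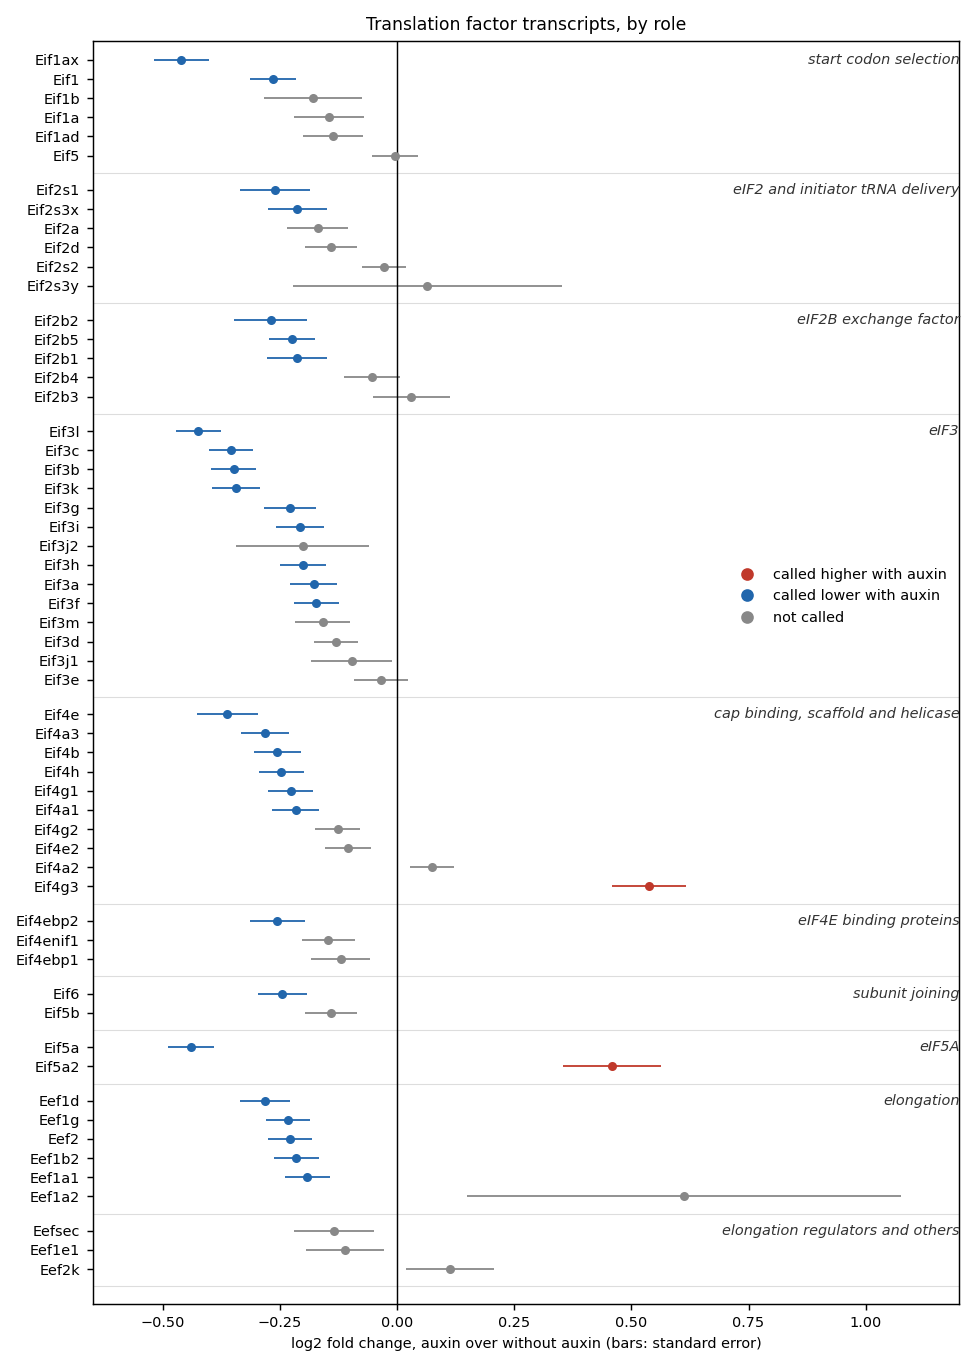
Log2 fold change of auxin over without auxin (x axis, points with standard error) for the factors tested, arranged by role, leaving out Eif4e1b, whose fitted value of 4.06 rests on few fragments. Every eIF3 subunit lies left of 0 (lower with auxin), and Eif4g3 and Eif5a2 are the genes drawn that were called higher.

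Levels per length, in FPKM (CPM divided by the exonic length in kb), spanned several orders of magnitude. Eef1a1, which codes for eEF1A in most cells, was the highest at 3111 ± 71.2 FPKM with auxin and 3553 ± 11.5 FPKM without (SD, n = 2 each). Eef2, the translocase, came next at 1285 ± 24.9 FPKM with auxin and 1505 ± 2.35 FPKM without. Eif5a, the hypusine-carrying factor that helps ribosomes past difficult peptide bonds, was the highest initiation factor by name, at 405 ± 12.3 FPKM with auxin and 549 ± 16.5 FPKM without. Eif3k followed at 349.5 ± 12.7 FPKM with auxin and 443 ± 11.9 FPKM without. These 4 levels were apart from each other beyond their spread within each condition. The next pair, Eif4ebp1 (334 ± 23.5 FPKM) and Eef1b2 (326 ± 9.33 FPKM), did not differ beyond their spread in cells without auxin. The lowest tested genes were Eif2s3y, Eef1a2 and Eif4e1b, each under 1 FPKM in both groups.

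**Figure D3:**
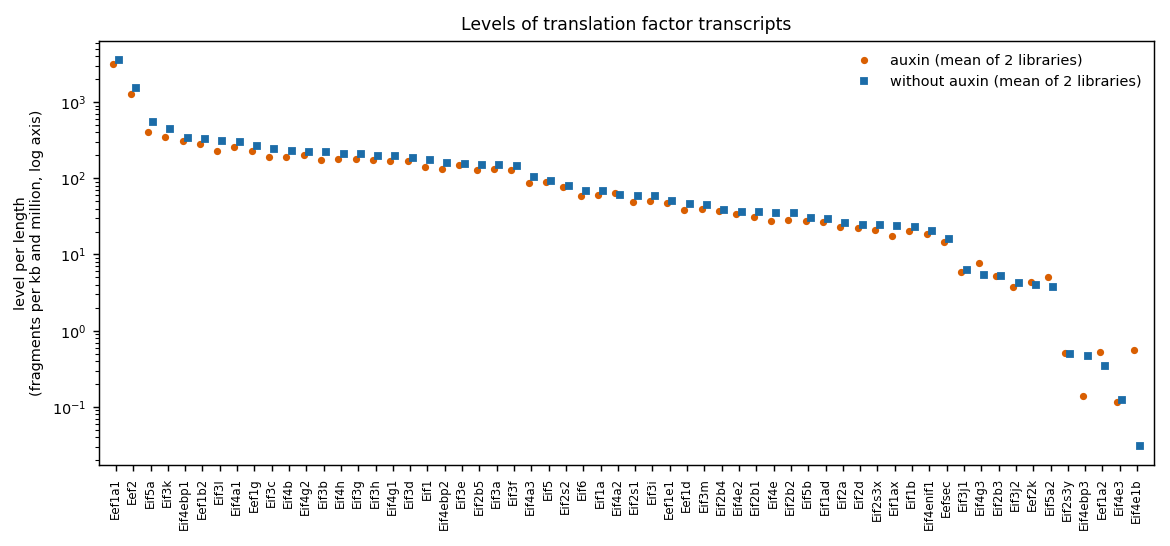
Level per length of the factors (FPKM, log axis), as the mean of 2 libraries with auxin and of 2 without, in order of level. Eef1a1 and Eef2 stand above all others, and Eef1a2, Eif4e1b and the drawn genes under the expression filter lie at the bottom. Eif2c5, at 0 FPKM with auxin, is not drawn.

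The promoters of these genes were read from RefSeq windows of build GRCm38.p6, from 250 bases before to 50 bases after the annotated start, which exist for 47 of the 61 genes. The E-box CACGTG, the site of the MYC family of growth regulators, occurred in 10 of the 47 windows (21.3%), against 1381 of 17325 windows (7.97%) over all genes of the table. The letters CCGGAAG, the core of ETS family sites, occurred on either strand in 14 (29.8%), against 2042 of all windows (11.8%). The factors' windows also differed in CpG dinucleotides, with a median of 24, against 13 in all windows. Both motifs occurred in 2 genes, Eif1b and Eif5a2, at sites that did not overlap. Of the 10 genes with an E-box, 7 fell, 1 rose and 2 were not called. Of all 47 factors with a window, 25 fell and 2 rose. Whether the E-box goes with the calls was not tested. A match to these letters is a description and not a bound site. The E-boxes (capitals) that lie upstream of the start in abundant factors that fell, and in Eif5a2, which rose, are shown so that their flanks can be compared.
Eef2, chr10:81176571-81176610, plus strand: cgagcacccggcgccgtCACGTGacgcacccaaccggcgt
Eif4a1, chr11:69672590-69672629, minus strand: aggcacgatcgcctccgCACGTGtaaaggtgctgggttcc
Eif4g1, chr16:20672656-20672695, plus strand: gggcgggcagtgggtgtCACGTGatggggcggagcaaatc
Eif4h, chr5:134639483-134639522, minus strand: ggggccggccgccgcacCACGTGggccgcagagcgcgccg
Eif3f, chr7:108934330-108934369, plus strand: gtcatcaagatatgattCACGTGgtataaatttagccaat
Eif3k, chr7:28981910-28981949, minus strand: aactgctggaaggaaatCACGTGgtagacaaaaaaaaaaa
Eif5a2, chr3:28781118-28781157, plus strand: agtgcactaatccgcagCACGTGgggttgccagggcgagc
Eif5a2, chr3:28781143-28781182, plus strand: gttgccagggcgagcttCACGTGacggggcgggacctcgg
These begin 43 bases (Eef2), 189 bases (Eif4a1), 54 bases (Eif4g1), 96 bases (Eif4h), 68 bases (Eif3f), 44 bases (Eif3k) and 142 and 117 bases (Eif5a2) before the RefSeq start. The E-box of Eif3a, which also fell, lies after its start and is not shown. The flanks differ widely, from GC-rich in Eif4h to AT-rich in Eif3f and Eif3k. The RefSeq start of Eif4g1 lies 4414 bases from the 5′ end that the count table gives it.

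The ETS motif is shown for 3 genes with some of the most negative changes (capitals, read along the gene, so that CTTCCGG is the reverse complement of the motif). In Eif3c the match shown begins 68 bases before the RefSeq start, and another, 34 bases before it, is not shown.
Eif1ax, chrX:159371949-159371989, plus strand: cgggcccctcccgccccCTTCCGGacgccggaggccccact
Eif3l, chr15:79075171-79075211, plus strand: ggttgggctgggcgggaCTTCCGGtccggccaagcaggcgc
Eif3c, chr7:126566411-126566451, minus strand: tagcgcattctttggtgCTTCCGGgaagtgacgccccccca
Of the 14 genes with the ETS motif, 7 fell, 1 rose and 6 were not called. That is near the share over all 47 factors with a window, of which 25 fell. Eif5a, among the genes that fell most, had neither motif in its window.

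Among 6 genes of start codon selection 2 fell (Eif1ax and Eif1) and 4 were not called, with a median log2 fold change of −0.16. This share called lower (33.3%) is near the 31.8% of all genes at 50 CPM or more. Over all genes tested it was 14.5%. The same shares are the background for the roles below. Eif1ax, the X-linked gene for the scanning factor eIF1A (chrX:159372178-159389928, plus strand), had 92.8 and 89.4 CPM with auxin and 125 and 125 CPM without. The libraries of each group lay close together and the groups did not overlap, a 1.38-fold fall (log2 fold change −0.46, SE 0.06, adjusted p = 0.000259). It was the most negative change of all 58 factors tested. Its autosomal paralog Eif1a had 189.9 and 161 CPM with auxin, against 202 and 186 CPM without, and was not called (adjusted p = 0.171). Eif1, which guards the stringency of start codon choice, fell to 301 and 297 CPM with auxin, against 366 and 353 CPM without (adjusted p = 0.00221). Its less abundant paralog Eif1b (log2 fold change −0.18, adjusted p = 0.223) and the nuclear relative Eif1ad (−0.14, adjusted p = 0.139) were not called. Eif5, the GTPase activator of eIF2, had 375 and 359 CPM with auxin and 375 and 362 CPM without, the smallest change of all 58.

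eIF2 carries the initiator tRNA and is the target of the integrated stress response. Of 6 genes 2 fell and 4 were not called, with a median log2 fold change of −0.16. Eif2s1, the alpha subunit that stress kinases phosphorylate, had 180.1 and 154 CPM with auxin and 209 and 190.5 CPM without (log2 fold change −0.26, SE 0.07, adjusted p = 0.0233). Eif2s3x, the X-linked gamma subunit, had 81.6 and 76.9 CPM with auxin and 92.0 and 91.4 CPM without (−0.21, SE 0.06, adjusted p = 0.0278). Both calls were lost with library totals alone and without replicate 1 of the cells without auxin (adjusted p = 0.125 for Eif2s1 and 0.116 for Eif2s3x). Both were also lost without auxin replicate 2 (0.141 for Eif2s1 and 0.188 for Eif2s3x). The call of Eif2s3x was further lost without replicate 2 of the cells without auxin (0.0801) and in DESeq2 (0.0781). Eif2s2, the beta subunit, had 533 and 512 CPM with auxin and 531 and 535 CPM without, overlapping ranges. The Y-linked copy Eif2s3y was near the bottom of the table, at 1.92 and 2.38 CPM with auxin and 1.76 and 2.37 CPM without. Eif2a and Eif2d, which can deliver tRNA without eIF2, were not called (adjusted p = 0.0738 and 0.0769).

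eIF2B is the exchange factor that recharges eIF2 with GTP. Of its 5 subunits 3 fell and 2 were not called. The catalytic subunit Eif2b5 had 410.3 and 413 CPM with auxin, against 469.5 and 493 CPM without (log2 fold change −0.22, SE 0.05, adjusted p = 0.00563). The regulatory subunits Eif2b1 (−0.21, adjusted p = 0.0286) and Eif2b2 (−0.27, adjusted p = 0.0240) were also called lower. Eif2b3 (0.03, adjusted p = 0.811) and Eif2b4 (−0.05, adjusted p = 0.541) were not. The calls of all 3 were lost with library totals alone. Those of Eif2b1 and Eif2b2 were also lost in DESeq2 (0.0770 and 0.0554) and without replicate 1 of the cells without auxin (0.0949 and 0.0942). Eif2b1 further lost its call without auxin replicate 2 (0.203) or replicate 2 of the cells without auxin (0.0975), and Eif2b2 without auxin replicate 1 (0.143).

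All 14 genes of eIF3, the largest initiation factor and the platform on the small subunit, had a negative fold change, with 1 exception in some alternatives: Eif3e was above 0 with library totals alone (log2 fold change 0.06) and without auxin replicate 2 (0.03). Of the 14, 9 fell and 5 were not called, with a median log2 fold change of −0.20. Eif3l, a subunit of the outer part of the complex, fell most, with 436 and 426 CPM with auxin against 590.2 and 568 CPM without. The groups stood well apart, a 1.34-fold fall (log2 fold change −0.42, SE 0.05, adjusted p = 0.000122). Eif3k, its direct neighbour in the complex, had 277 and 263 CPM with auxin and 349 and 336 CPM without (1.27-fold lower, adjusted p = 0.000669). The core subunits Eif3b and Eif3c fell too. Eif3b had 498 and 518 CPM with auxin and 655 and 639 CPM without (log2 fold change −0.35, adjusted p = 0.000434). Eif3c had 639.9 and 657 CPM with auxin and 821 and 838 CPM without (−0.36, adjusted p = 0.000338). In each of the 4 genes both auxin libraries lay below both libraries without.

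Eif3a, the largest core subunit, moved less, at 697 and 668 CPM with auxin and 794 and 752 CPM without (log2 fold change −0.18, adjusted p = 0.0216). The other 4 called subunits, Eif3f, Eif3g, Eif3h and Eif3i, had log2 fold changes between −0.23 and −0.17 with adjusted p between 0.00935 and 0.0198. The calls of these 5 were lost with library totals alone. Without replicate 1 of the cells without auxin they were lost too, at adjusted p = 0.188 for Eif3a, 0.147 for Eif3f, 0.0746 for Eif3g, 0.0889 for Eif3h and 0.0502 for Eif3i. Eif3a lost its call also without auxin replicate 2 (0.0682) and Eif3f without auxin replicate 1 (0.0579). Eif3i lost its call without auxin replicate 2 (0.0718) and without replicate 2 of the cells without auxin (0.0559).

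Eif3d, the subunit with its own cap-binding activity, and Eif3m were not called (adjusted p = 0.0597 and 0.0636). Eif3e had 240.2 and 219 CPM with auxin, against 239 and 232 CPM without, and the groups overlapped. The level per length of Eif3l relative to Eif3e was 1.48 and 1.58 with auxin and 2.01 and 2.00 without. The loosely bound subunit eIF3j has a pair of near-identical genes whose fragments the counting may split, Eif3j1 (log2 fold change −0.10, adjusted p = 0.438) and Eif3j2 (−0.20, adjusted p = 0.320).

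**Figure D4:**
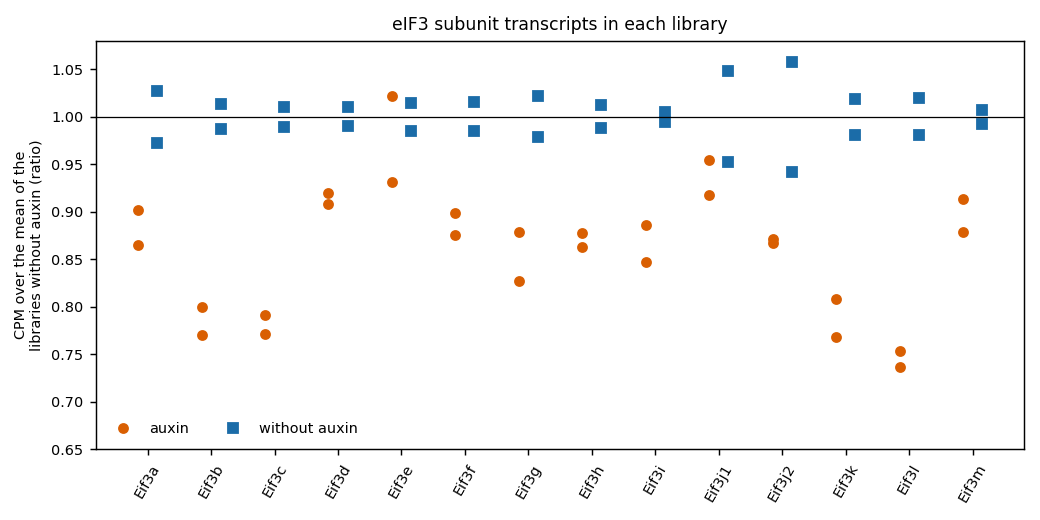
CPM of each eIF3 subunit in each library as a share of its mean without auxin, with auxin points beside points without auxin. Eif3l, Eif3c, Eif3b and Eif3k lie lowest with auxin, and in Eif3e and Eif3j1 the groups overlap.

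Of 12 genes of cap recruitment 11 were tested, of which 2 rose (Eif4g3 and Eif4e1b), 6 fell and 3 were not called. Eif4e, the cap-binding protein, had 81.9 and 77.3 CPM with auxin and 105 and 99.2 CPM without (1.29-fold lower, log2 fold change −0.36, SE 0.07, adjusted p = 0.00208). The scaffold Eif4g1 had 1179 and 1243 CPM with auxin, against 1410.4 and 1426 CPM without (−0.23, SE 0.05, adjusted p = 0.00531). The helicase Eif4a1 had 1143 and 1092 CPM with auxin and 1329 and 1269 CPM without (−0.22, SE 0.05, adjusted p = 0.00768). Thus each of the 3 subunits of the eIF4F complex had its main gene called lower. Eif4b and Eif4h, which stimulate the helicase, fell as well (−0.26 and −0.25, adjusted p = 0.00363 and 0.00310). So did Eif4a3, the helicase of the exon junction complex (−0.28, adjusted p = 0.00223).

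Of these, Eif4g1, Eif4a1 and Eif4h lost their calls with library totals alone. Eif4a1 also lost its call without replicate 1 of the cells without auxin (adjusted p = 0.0748). Several small RNA genes lie inside Eif4a1 on the same strand, and fragments assigned to more than one gene were not counted.

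Eif4g3, the second eIF4G scaffold (chr4:137993022-138208508, plus strand), had 87.4 and 84.5 CPM with auxin and 54.5 and 63.8 CPM without. Both auxin libraries were above both others, a 1.45-fold rise (log2 fold change 0.54, SE 0.08, adjusted p = 0.000662). A microRNA gene lies within it on the same strand. Its level per length was 0.0484 and 0.0444 of that of Eif4g1 with auxin, against 0.0252 and 0.0292 without, so Eif4g1 was the more abundant in each library. Eif4g2, which supports initiation without eIF4E, had 2060.3 and 1979 CPM with auxin and 2206 and 2204 CPM without, and was not called (adjusted p = 0.0695).

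Eif4e1b, a germline relative of Eif4e known from oocytes (RefSeq synonym Eif4eloo, chr13:54783998-54788459, plus strand), was almost silent without auxin. It had 16 and 23 fragments with auxin, against 1 and 1 without. That is 1.18 and 1.37 CPM with auxin, and 0.0702 and 0.0678 CPM without. The summed counts, 39 against 2, gave a ratio of 18.6 per fragment sequenced, with a 95% interval of 4.81 to 159 that covers counting error only. It passed the expression filter only through the auxin libraries, so its call is no support beyond these counts, and its fitted fold change depends on the prior count. Even with auxin its level stayed under 1 FPKM. DESeq2 gave it no adjusted p.

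Of the remaining paralogs, Eif4a2 had 346 and 339 CPM with auxin and 326 and 325 CPM without (log2 fold change 0.07, adjusted p = 0.264). It was called higher with library totals alone (adjusted p = 0.0252). Eif4e2, a cap-binding protein that represses translation, had 252 and 258 CPM with auxin and 278 and 271 CPM without (adjusted p = 0.136). Eif4e3 did not pass the filter, with 3 and 6 fragments with auxin and 3 and 6 without.

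The eIF4E-binding proteins hold eIF4E away from eIF4G until mTOR phosphorylates them. Of 4 genes 3 were tested, of which 1 fell and 2 were not called. Eif4ebp2 had 250.3 and 226 CPM with auxin and 290.0 and 278 CPM without (log2 fold change −0.26, SE 0.06, adjusted p = 0.00753). Eif4ebp1, the most abundant of them, had 287 and 316 CPM with auxin and 311 and 344 CPM without (adjusted p = 0.180), and the groups overlapped. Eif4enif1, which carries eIF4E into the nucleus, was not called (adjusted p = 0.0766). Eif4ebp3 had 2 and 1 fragments with auxin and 6 and 4 without, too few to test, and shares a strand and locus with Ankhd1.

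At the joining of the ribosomal subunits, Eif6, which keeps the large subunit apart until it is mature, fell. It had 157 and 156 CPM with auxin and 187 and 184 CPM without (log2 fold change −0.24, SE 0.05, adjusted p = 0.00502), a call lost with library totals alone. Eif5b, the joining GTPase, had 222 and 208 CPM with auxin and 244 and 231 CPM without, and was not called (adjusted p = 0.0781).

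The eIF5A pair moved in opposite directions. Eif5a (chr11:69916714-69921958, minus strand) had 983 and 941 CPM with auxin and 1332 and 1277 CPM without. Both auxin libraries were far below both others, a 1.36-fold fall with the smallest adjusted p of all factors (log2 fold change −0.44, SE 0.05, adjusted p = 0.000113). Eif5a2, a paralog known for a narrower range of tissues (chr3:28781311-28798846, plus strand), had 26.8 and 24.3 CPM with auxin and 19.4 and 17.8 CPM without. It rose by 1.37-fold, with no overlap of the groups (log2 fold change 0.46, SE 0.10, adjusted p = 0.00767). The annotation has an entry, MALAT1, whose outer ends take in both this gene and Eif2a on the same strand. Whether any part of it lies within Eif5a2 was not examined.

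Paralogs of a pair can be compared inside each library, where scaling cancels. The level per length of Eif5a2 relative to Eif5a was 0.0130 and 0.0123 with auxin and 0.00693 and 0.00662 without. That of Eif4a2 relative to Eif4a1 was 0.246 and 0.252 with auxin and 0.199 and 0.208 without. That of Eif4e2 relative to Eif4e was 1.18 and 1.28 with auxin, against 1.01 and 1.05 without. The Eif1ax to Eif1a ratio was 0.267 and 0.303 with auxin, against 0.339 and 0.369 without. In each of these, and in Eif4g3 to Eif4g1, the groups did not overlap. The 16 ratios computed include some between genes that are not paralogs, such as Eif3l to Eif3e and Eef2k to Eef2. Of the 16 the groups were apart in 13 and overlapped in 3, those of Eef1a2 to Eef1a1, Eif2s3y to Eif2s3x and Eif4ebp1 to Eif4ebp2. The share of ratios apart over other gene pairs was not computed, so this count has no background. For single genes, CPM was apart in 64.8% of all tested and in 75.0% of those at 50 CPM or more. With 2 libraries a group the smallest p that the two-sided exact permutation test allows is 0.333, which those with groups apart reached (0.41 after Benjamini-Hochberg adjustment over the 16), so no ratio could pass the threshold. A ratio shows unequal change and not which gene changed.

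**Figure D5:**
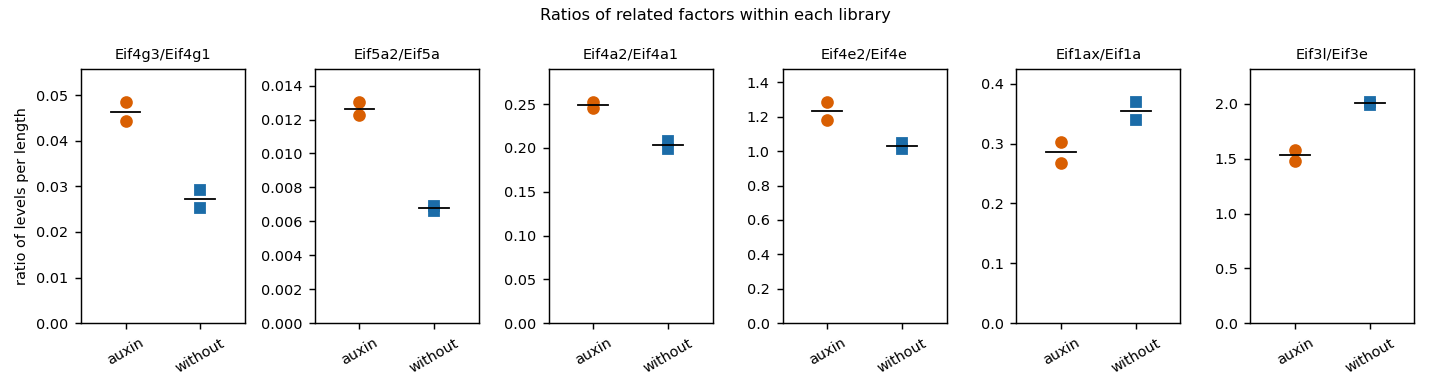
Ratio of levels per length of paralog pairs, and of the eIF3 subunits Eif3l and Eif3e, in each library (y axis, from 0, a panel per pair), auxin left of without auxin. The Eif4g3 to Eif4g1 and Eif5a2 to Eif5a ratios are higher in both auxin libraries.

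Eef1a1 and Eef2 had the highest levels per length of all 61 genes, and both fell. Of the 6 genes of the elongation machinery 5 fell and 1 was not called. Eef1a1 had 7881 and 7630.4 CPM with auxin, against 8879 and 8838 CPM without (log2 fold change −0.19, SE 0.05, adjusted p = 0.0122). Eef2 had 3925 and 4034 CPM with auxin, against 4658 and 4669 CPM without (−0.23, SE 0.05, adjusted p = 0.00475). The libraries did not overlap in either gene. The 3 subunits of eEF1B, which reloads eEF1A with GTP, fell together. Eef1d had 231 and 218 CPM with auxin and 278 and 267 CPM without (−0.28, SE 0.05, adjusted p = 0.00267). Eef1g (−0.23, adjusted p = 0.00381) and Eef1b2 (−0.21, adjusted p = 0.00642) changed by less. Only the call of Eef1d held with library totals alone, and those of Eef1a1 and Eef1b2 were also lost without replicate 1 of the cells without auxin (0.0635 and 0.0690).

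The 3 remaining genes named Eef were not called, by edgeR or DESeq2, and 0 of them had an unadjusted p under 0.05 in either. Eef2k, the kinase that inactivates eEF2, had 33.0 and 29.1 CPM with auxin and 29.0 and 28.2 CPM without (log2 fold change 0.11, adjusted p = 0.401). Eefsec, which delivers selenocysteine tRNA, had a log2 fold change of −0.13 (adjusted p = 0.269). Eef1e1, a scaffold of the tRNA synthetase complex, had one of −0.11 (adjusted p = 0.345).

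Eef1a2 codes for the eEF1A of neurons and muscle. It had 10 and 24 fragments with auxin and 7 and 14 without, which is 0.737 and 1.43 CPM with auxin and 0.492 and 0.949 CPM without. The groups overlapped (adjusted p = 0.355). The 250 bases upstream of its RefSeq start hold 4 CpG dinucleotides, and those upstream of Eef1a1 hold 18 (CG in capitals). Both are shown because the genes code for nearly the same protein and lie at opposite ends of the range of levels.
Eef1a2, chr2:181157016-181157265, minus strand: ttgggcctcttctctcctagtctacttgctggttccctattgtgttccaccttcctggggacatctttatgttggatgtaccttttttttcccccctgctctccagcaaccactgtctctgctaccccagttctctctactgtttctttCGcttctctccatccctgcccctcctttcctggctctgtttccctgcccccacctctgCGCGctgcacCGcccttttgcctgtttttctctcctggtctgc
Eef1a1, chr9:78481725-78481974, minus strand: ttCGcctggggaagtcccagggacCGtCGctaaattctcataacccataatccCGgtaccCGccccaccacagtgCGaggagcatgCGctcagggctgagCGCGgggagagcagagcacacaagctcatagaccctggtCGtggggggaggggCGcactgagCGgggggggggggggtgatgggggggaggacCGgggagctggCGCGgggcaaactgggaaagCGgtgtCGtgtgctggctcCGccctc
The RefSeq start of Eef1a1 lies 7427 bases from the 5′ end that the count table gives it, so its window belongs to a start inside the counted gene.

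H3K27me3 was found at few of these genes. Within 1 kb of the 5′ end, 3 of 61 (4.92%) overlapped a deposited peak of either assay, against 16.4% of 32968 placed genes. Only 13522 of 33006 genes passed the expression filter, against 58 of the 61. The share among expressed genes was not computed. For Eef1a1 and Eif4g1 the 5′ end used lies 7427 and 4414 bases from the RefSeq start, so those starts were not examined. The 3 were Eef1a2, Eif4e3 and Eef1d. At Eef1a2 the ChIP-seq list (6 h, without auxin) had 3 peaks, and the CUT&RUN control list (12 h) had 1 of 4391 bp across the start, chr2:181153867-181158257, with the authors' fold enrichment of 3.22. At Eif4e3 a ChIP-seq peak of 551 bp lay upstream, and a CUT&RUN peak of 7526 bp covered the start (chr6:99661257-99668782, authors' fold 3.50). Both genes are almost silent in these cells. Eef1d, an abundant gene, had 1 ChIP-seq peak of 1536 bp that began 781 bases upstream of its 5′ end and no CUT&RUN peak. Eif4e1b, one of the genes that rose, had no peak in either list. With a window of 500 bases on either side 2 genes remained. Each list comes from 1 sample, and neither compares auxin with its absence.

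The other genes of the translation machinery were counted in lists for context. For each list the background is that 14.5% of all genes tested were called lower and 13.0% higher. The share called lower was 31.8% at 50 CPM or more and 6.13% below. Whether any list differs from these shares was not tested. Of 20 cytosolic aminoacyl-tRNA synthetases 15 fell and 5 were not called, with a median log2 fold change of −0.22. Vars, for valine, had the smallest adjusted p of them, with 307 and 331 CPM with auxin and 428 and 438 CPM without (adjusted p = 0.000158). On library totals 8 of the 20 were called lower. Of 7 genes for the poly(A)-binding protein and its partners 4 fell and 3 were not called, with a median of −0.19. Pabpc4 had the smallest adjusted p (0.00138), and with library totals alone 2 fell and 1 rose. Of 9 termination and recycling genes 2 fell and 7 were not called, with a median of −0.12. The 2 were the release factors Etf1 (adjusted p = 0.000831) and Gspt1 (adjusted p = 0.00340).

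Of 9 enzymes that place hypusine on eIF5A or diphthamide on eEF2, 2 fell, Dph3 and Dohh, and 7 were not called. Dph3 had the smaller adjusted p, with 23.4 and 24.8 CPM with auxin and 34.1 and 30.0 CPM without (log2 fold change −0.41, edgeR adjusted p = 0.00947). Dohh, which completes hypusine on eIF5A, had 83.8 and 82.9 CPM with auxin and 97.2 and 95.9 CPM without (adjusted p = 0.0222). Only 1 of the 9 was called lower in DESeq2 and with library totals alone, and none (0 by edgeR, with 2 at an unadjusted p under 0.05) without replicate 1 of the cells without auxin. The call of Dohh was also lost without auxin replicate 2 and without replicate 2 of the cells without auxin. Of 10 mitochondrial translation factors 1 fell, Tufm (adjusted p = 0.00542), and 9 were not called, with a median of −0.05. Its call was lost without replicate 1 of the cells without auxin, and with library totals alone the median was 0.05. None of the 6 eIF2 kinases and phosphatase partners was called by edgeR or DESeq2, with a median of 0.05. At an unadjusted p under 0.05, edgeR gave 2 of them higher and DESeq2 0. On library totals 3 were called higher.

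The counts of Eif2c5 were 0 and 0 with auxin and 5 and 3 without, under the filter. Fragments that matched several places in the genome were not counted, per the file headers, so genes with near-identical copies or processed pseudogenes, among them Eef1a1, Eif1a, Eif3j1, Eif3j2 and Eif4a1, may be undercounted to an unknown degree.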

How the data were processed

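RNA of 2 libraries with auxin and 2 without was analysed. The deposited values are raw fragment counts, a row per gene. Per the file headers, the authors made these counts with featureCounts 1.6.3 on paired reads over exons, on the reverse strand of an mm10 annotation, without counting fragments that matched several places or several genes. STAR 2.6.1d, Bowtie2 2.4.1 and MACS2 2.1.1 are named in the submitters' processing notes. The authors' peak lists give each broad peak's fold enrichment (a ratio), −log10 p and −log10 q and score, per the file headers and layout. Neither their control nor their cutoff is given in the sources used here.

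The test was edgeR 4.0.16 under R 4.3.3 on the counts (TMM factors, default expression filter, quasi-likelihood F test, two-sided, Benjamini-Hochberg over all 13522 genes tested, threshold 0.05), as auxin over without, with no replicate block. Standard errors are the size of the log2 fold change divided by the root of F. CPM uses TMM-scaled library sizes, and FPKM is CPM over the exonic length in kb. A gene's 5′ end, with 1 kb on either side, was overlapped with the peaks by at least 1 base. Promoters were taken from RefSeq (GRCm38.p6, the build that mm10 names). The fit was tested on simulated data. Replicates were not repeat deposits: a chi-square test of their counts gave 11.1 per degree of freedom with auxin and 3.86 without, above counting noise. Intervals cover counting error only.

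The genes named are each gene called, the paralog families, the genes under the filter and, in context lists, the called gene with the smallest adjusted p. The genes and lists were chosen with earlier results of these data known. Alternatives were RLE and upper-quartile factors, library totals alone, no filter, DESeq2 1.42.0, a replicate block, and each library left out. Where that leaves 1 library in a group, it is assumed to vary like the others.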

Additional observations from a re-analysis of the deposited data

How the results depend on the processing

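The settings tried were RLE factors, upper-quartile factors, library totals alone, no expression filter, DESeq2, a replicate block and each of the 4 libraries left out. Using library totals alone, 2735 of all genes were called higher and 988 lower (median log2 fold change 0.11), with 11 initiation factors called lower (median −0.084) and 1 elongation factor (median −0.10). The construction of this setting, which drops the TMM factors, shifts nearly all fold changes by about the same amount. DESeq2 called 881 of all genes higher. The median of all genes was 0.040 with upper-quartile factors, 0.026 without the filter and 0.022 in DESeq2. With 1 library left out, 1225 to 1705 of all genes were called higher and 1257 to 1914 lower (medians of 0.0085 to 0.015). Initiation factors then had 15 to 27 genes called lower and 3 higher, with medians of −0.21 to −0.15. Elongation factors had 3 to 5 called lower and 0 higher, with medians of −0.21 to −0.17. The lowest counts came without replicate 1 of the cells without auxin. The labels number the replicates alike in both groups, but nothing says that a number marks a shared culture. With the replicate block 2972 of all genes were called higher and 3177 lower, with 36 initiation factors called lower and 5 elongation factors. The deviations of same-numbered libraries from their group means had r = 0.227 over genes, a single value with 2 libraries a group, which does not settle whether the numbers pair them.

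Some genes that were not called changed sign. With library totals alone the log2 fold changes were 0.067 for Eif2s2, 0.041 for Eif2b4, 0.090 for Eif5 and 0.060 for Eif3e. With upper-quartile factors that of Eif5 was 0.023. With 1 library left out they ranged from −0.059 to 0.0038 for Eif2s2, from −0.039 to 0.031 for Eif5, from −0.10 to 0.034 for Eif3e and from −0.13 to 0.29 for Eif2s3y. The highest value of the first 3 came without auxin replicate 2, and that of Eif2s3y, which was also −0.11 there, came without replicate 2 of the cells without auxin. The cause of these changes was not tested. The counts of genes with an H3K27me3 peak were 3 with peaks at or above the median −log10 q of their list, 3 with an overlap of at least 200 bases and 2 with the narrower window. Depth limits Eif4e1b, Eef1a2, Eif2s3y and the genes under the filter, and that of the chromatin libraries is unknown.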
